A study of Arabidopsis thaliana with 12 samples.

Results

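The 39 genes described here are encoded in the mitochondrial genome of Arabidopsis thaliana, a separate DNA molecule that plant cells keep in their mitochondria. They were chosen from the annotation in the authors' deposited table as the probe sets (the groups of short probes that report a gene) that name a single locus, and that locus one of the mitochondrial genome. Of 103 probe sets that name a mitochondrial locus, 39 name no other, and each reports a different gene. They stand among 20004 genes that have a probe set naming 1 locus only. The other 64 probe sets name several loci, and 62 of these also name a locus in the AT2G07 range of nuclear chromosome 2. Of the 39 genes, 9 encode proteins of known function and 30 are open reading frames of unknown function. No ribosomal or transfer RNA is among them.

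The plant mitochondrial genome keeps genes for some subunits of the respiratory complexes, for parts of the machinery that attaches haem to cytochrome c, and for parts of the mitochondrial ribosome, while most mitochondrial proteins are encoded in the nucleus and imported. Complex I passes electrons from NADH to ubiquinone, complex IV passes them from cytochrome c to oxygen, and the ATP synthase uses the resulting proton gradient. In plant mitochondria a poly(A) tail marks a transcript for decay, and standard labelling for this kind of array starts from poly(A) tails. The reference line Col-0 also carries a large insertion of mitochondrial DNA in chromosome 2, so many mitochondrial sequences have a nuclear copy.

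The samples were leaves and roots of seedlings, harvested apart, of Col-0 wild type (WT) and of a pdx1.3 knockout in the same ecotype. PDX1.3 is part of the enzyme complex by which plants make vitamin B6. All plants were 10 days old and had grown on a Murashige and Skoog medium that held 1% sucrose and lacked vitamin B6, with days of 16 h at 22 °C and nights of 8 h at 18 °C. Each of the 4 groups (WT leaves, pdx1.3 leaves, WT roots, pdx1.3 roots) had 3 samples, given as biological replicates in the series design, and each sample its own Affymetrix ATH1 array. Groups follow the sample titles; a genotype field of the labels states the contrary in all 12 cases. There was 1 mutant line and no rescue, so what follows from the loss of PDX1.3 and from anything else that sets the lines apart cannot be told apart. In whole organs, fewer cells of a type and less RNA per cell cannot be told apart either.

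The PDX1.3 signal was 823 ± 201 (SD, n = 3) in WT leaves against 43.1 ± 6.56 (SD, n = 3) in pdx1.3 leaves, and in roots 276 ± 10.5 (SD, n = 3) for WT against 97.9 ± 16.9 (SD, n = 3) for pdx1.3, which fits the titles. Where the mutation lies relative to the probes is not stated in the labels or files. All 4 measured leaf markers were higher in WT leaves than in WT roots, and 6 of 7 root markers were lower there. SCR, a regulator of root ground tissue that leaves also express, was the marker that did not differ. Among the principal components of the 17449 probe sets present on at least 3 arrays, the first held 88.9% of the variance and separated the organs. On the second (4.04%) the leaf arrays numbered 1 stood out, with scores of -45.92 in WT (other WT leaves -17.89 and -15.57) and 34.39 in pdx1.3 (other pdx1.3 leaves 21.27 and 19.83). The ratio of 3' to 5' actin probes, a measure of RNA integrity in the authors' deposited table, ran from 5.6 to 8.27 in leaves of WT, from 3.12 to 8.71 in leaves of pdx1.3, from 4.45 to 6.4 in roots of WT and from 2.97 to 6.59 in roots of pdx1.3.

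Most of the mitochondria-encoded genes were at the edge of detection. The authors' software called each probe set present, marginal or absent on each array. No array had a present call for 21 of the 39 genes (53.8%), whereas this held for 18.9% of all probe sets on the array. Between 6 and 13 of the 39 were present on an array, and between 63.2% and 71.8% of all probe sets. The genes present on all 12 arrays were ORF111D, COX1 and ORF111B. A further 10 were present on 3 to 11 arrays, so that 13 in all were present on at least 3, and 5 were present on 1 or 2. Of the genes of known function, NAD5C and NAD7 were present on no array. Where no array of a group had a present call, a signal there is treated as within background. Where this holds for both groups compared, the fitted difference is given only as a value of the fit, not as a fold change.

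**Figure D1:**
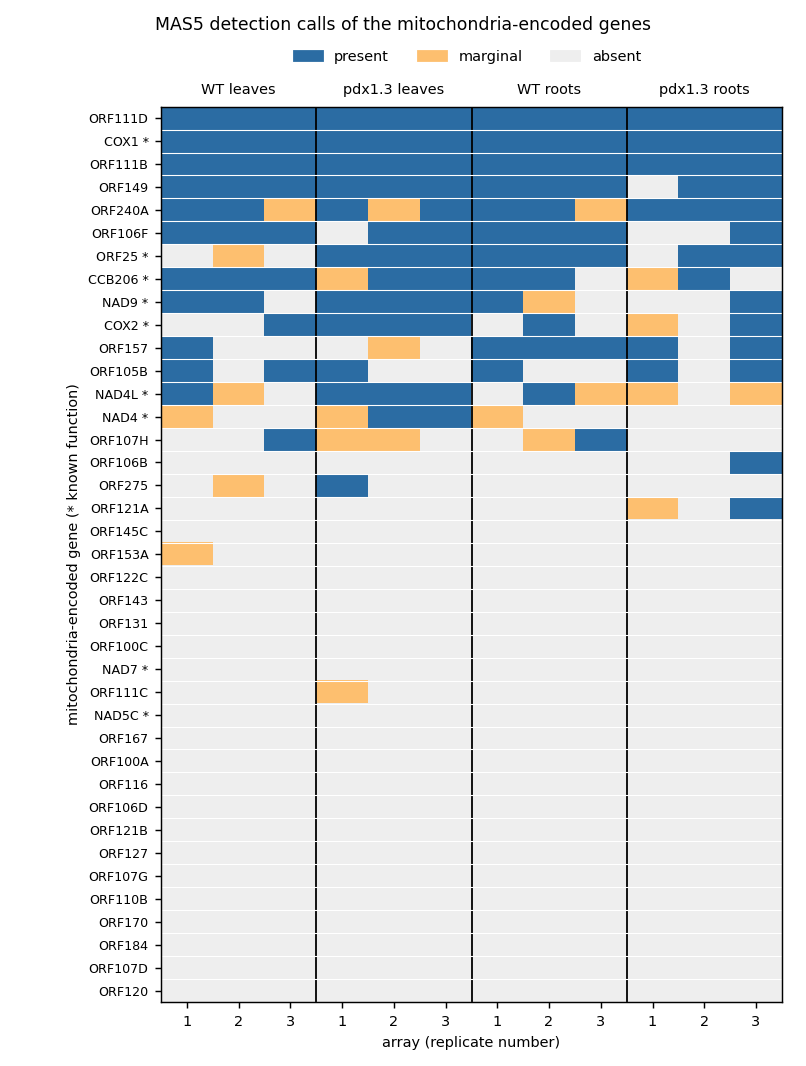
Detection calls of the 39 mitochondria-encoded genes (rows, ordered by the number of present calls, asterisks mark the 9 of known function) on the 12 arrays (columns, 3 for each group). Blue is present, orange marginal and grey absent, and 21 rows hold no blue field.

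Leaves were compared first, to see which mitochondrial transcripts differ between the genotypes in a green organ. Of the 39 genes, 3 were higher and 1 was lower in pdx1.3 leaves at an adjusted p under 0.05 in limma, fitted to log2(signal + 16) of all 22746 probe sets, of which 7.22% were called in this comparison. The 4 called genes were ORF111D, NAD9 and ORF107G, which were higher, and ORF143, which was lower. Only ORF111D and NAD9 were present in both genotypes. The median log2 change of the 39 was 0.034, and 26 of them had a positive value, while the median of all probe sets was 0.011. WT and pdx1.3 leaves had signals without overlap for 6 of the 39 genes, and for 24.6% of all probe sets.

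ORF111D (ATMG01370), an open reading frame of unknown function at positions 360717 to 361052 on the reverse strand of the mitochondrial genome, was highest in pdx1.3 leaves. Its MAS5 signals were 52.1, 50.4 and 41.8 in WT leaves and 79.2, 104 and 99.3 in pdx1.3 leaves. The WT root arrays read 21.5, 33.6 and 39.4, the pdx1.3 root arrays 27.5, 20.7 and 37. All pdx1.3 leaf arrays lay above all WT leaf arrays, and all of these above all root arrays, where the genotypes overlapped. The log2 change was 0.78 in leaves (SE 0.18, limma adjusted p = 0.0212), and in roots the log2 difference was -0.10 (SE 0.18, limma adjusted p = 1.00). The leaf call was lost without pdx1.3 leaves replicate 2 (adjusted p = 0.079), without pdx1.3 leaves replicate 3 (adjusted p = 0.0679) and without WT leaves replicate 3 (adjusted p = 0.0714), where the log2 change stayed between 0.71 and 0.74. In the authors' deposited table, 7 of the 9 pairs of a mutant and a WT leaf array had an increase call for this probe set, with an unadjusted p of 0.00401.

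NAD9 (ATMG00070, positions 23663 to 24235, reverse strand) encodes a subunit of the peripheral arm of complex I. Its signals were 14.5, 9.87 and 9.49 in WT leaves and 16.2, 21 and 24.7 in pdx1.3 leaves, with the genotypes apart from each other. Root signals lay between 7.48 and 9.08 in WT and between 7.17 and 11.1 in pdx1.3, and overlapped. The log2 change in leaves was 0.42 (SE 0.11, limma adjusted p = 0.0378). This call was lost in 8 of the 12 fits that left out 1 array (adjusted p from 0.0517 to 0.121), namely those without pdx1.3 leaves replicates 2 or 3, WT leaves replicates 2 or 3, pdx1.3 roots replicate 1 or any WT root array, and the log2 change stayed between 0.34 and 0.51 over the 12 fits. It was also lost with a constant of 1 before log2 (adjusted p = 0.106), with each array centred on its median (adjusted p = 0.0828), with only the leaf arrays fitted (adjusted p = 0.167) and with the replicate number as a block (adjusted p = 0.0657). In the authors' deposited table, 5 of 9 array pairs had an increase call in leaves.

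ORF107G and ORF143 were absent on all 12 arrays, so their calls concern signals within the background range. ORF107G (ATMG01060, positions 274899 to 275222, forward strand) had signals of 0.692, 0.803 and 0.867 in WT leaves and 7.85, 4.4 and 5.08 in pdx1.3 leaves, and between 0.221 and 0.661 on the 6 root arrays. The leaf genotypes did not overlap (limma adjusted p = 0.0018), and leaving out any of the 12 arrays kept the call. The annotation notes of this probe set also name the nuclear locus AT2G07743. ORF143 (ATMG00120) had signals of 7.96, 8.63 and 4.06 in WT leaves and 1.15, 4.17 and 0.449 in pdx1.3 leaves, where the genotypes overlapped (limma adjusted p = 0.0366). Its call was lost in 8 of the 12 fits without 1 array (adjusted p up to 0.125), those without pdx1.3 leaves replicates 1 or 3, WT leaves replicates 1 or 2, pdx1.3 roots replicate 1 or any WT root array. It was also lost with only the leaf arrays fitted (adjusted p = 0.157), with no variance trend (adjusted p = 0.0628), with the replicate block (adjusted p = 0.053), with the actin ratio as a covariate (adjusted p = 0.0577) and without both leaf arrays numbered 1 (adjusted p = 0.182).

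The other 8 genes of known function were not called in leaves. Of these, 5 belong to the complexes of the respiratory chain and the ATP synthase and had present calls. ORF25 (ATMG00640), which encodes the b subunit of the ATP synthase, had signals of 9.57, 10.5 and 10.3 in WT leaves and 21.3, 9.04 and 19.2 in pdx1.3 leaves. No WT leaf array had a present call for it, so its WT leaf signals are treated as within background. Its WT root arrays, with signals of 8.5, 9.02 and 10.2, were nevertheless all called present. The pdx1.3 leaf array numbered 2 lay below all WT leaf arrays, and the log2 difference of 0.30 did not pass (SE 0.13, limma adjusted p = 0.204). Without that array the log2 change was 0.47 (limma adjusted p = 0.0137). COX2 (ATMG00160), a core subunit of complex IV, had signals of 7.02, 7.81 and 11.1 in WT leaves and 7.57, 16.4 and 16.4 in pdx1.3 leaves, which overlapped (log2 difference 0.25, SE 0.13, limma adjusted p = 0.312). COX1 (ATMG01360), the catalytic subunit of complex IV, was present on every array with signals from 22.3 to 26.8 in WT leaves and from 24.5 to 34.5 in pdx1.3 leaves (log2 difference 0.16, SE 0.15, limma adjusted p = 0.602).

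Of the complex I genes other than NAD9, none was called in leaves. NAD4 (ATMG00580), a subunit of the membrane arm, varied most among replicates, with signals of 42.3, 18.5 and 13.6 in WT leaves, none of them called present, and 14.6, 39.3 and 32.1 in pdx1.3 leaves (log2 difference 0.15, SE 0.25, limma adjusted p = 0.81). The arrays numbered 1, which lay apart on the second component, were the high WT array and the low pdx1.3 array. Without both of them the log2 change of NAD4 was 0.69 (limma adjusted p = 0.0211), an alternative added after the data were seen. NAD4L (ATMG00650), a small membrane subunit, had means of 10.1 ± 2.64 (SD, n = 3) in WT and 10.8 ± 0.536 (SD, n = 3) in pdx1.3 leaves. CCB206 (ATMG00110), a membrane protein of cytochrome c maturation, had 11.9 ± 1.97 (SD, n = 3) and 12.4 ± 4 (SD, n = 3), with log2 differences of 0.04 for NAD4L and 0.02 for CCB206. NAD5C (ATMG00060) and NAD7 (ATMG00510), present nowhere, had fitted log2 differences of 0.03 and -0.0021.

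**Figure D2:**
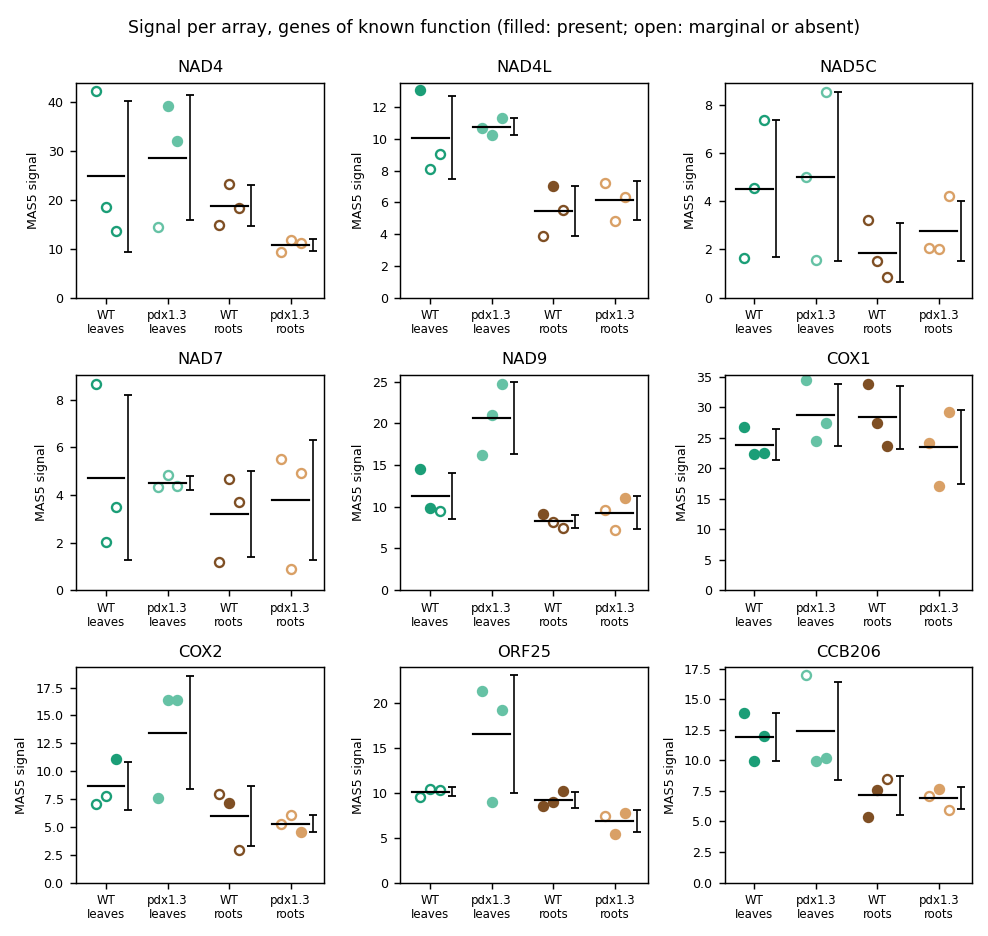
MAS5 signal (linear scale, one panel for each gene) of the 9 mitochondria-encoded genes of known function on each array, by group. Filled points are arrays with a present call, open points arrays with a marginal or absent call, horizontal lines the group means and vertical bars the SD of 3 arrays; for NAD9 the pdx1.3 leaf points, from 16.2 to 24.7, lie above all others.

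Among the open reading frames with the highest signals, ORF149 (ATMG00660) had 17.2, 18.6 and 24.5 in WT leaves and 44.8, 27.8 and 21.7 in pdx1.3 leaves. The genotypes overlapped, and the log2 difference of 0.37 did not pass (SE 0.19, limma adjusted p = 0.295). ORF111B (ATMG01180) did not overlap, with signals from 15.9 to 18.2 in WT and from 18.9 to 22.5 in pdx1.3 leaves, yet its log2 difference of 0.16 did not pass either (SE 0.09, limma adjusted p = 0.37). ORF240A (ATMG00690) had similar ranges in the genotypes, from 23.5 to 34.6 in WT and from 26.1 to 37.6 in pdx1.3 leaves.

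**Figure D3:**
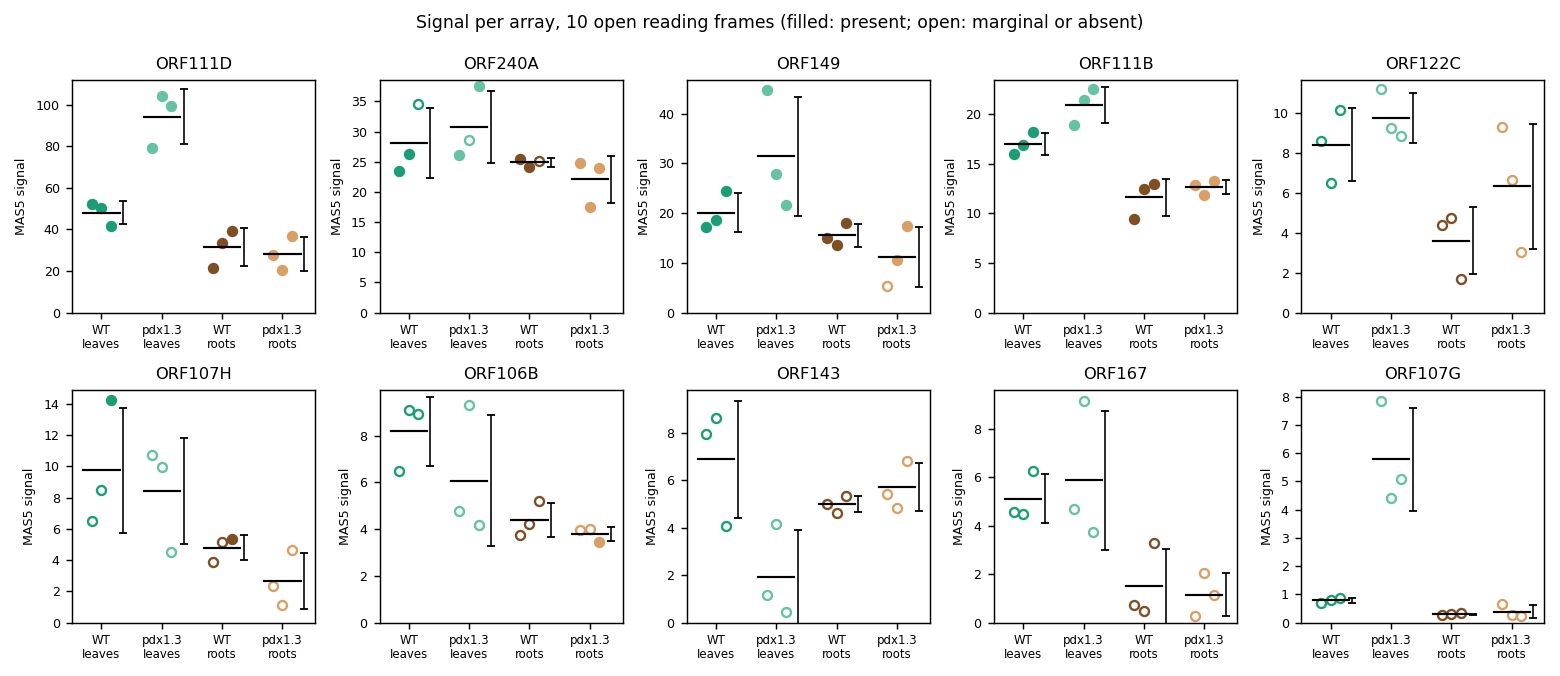
MAS5 signal (linear scale, one panel for each gene) of 10 mitochondrial open reading frames on each array, by group. Filled points are arrays with a present call, open points arrays with a marginal or absent call, horizontal lines the group means and vertical bars the SD of 3 arrays, cut at 0; the pdx1.3 leaf points of ORF111D, from 79.2 to 104, lie above all its other points, and ORF107G has open points only.

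In roots none of the 39 genes differed between pdx1.3 and WT in limma (0 at an adjusted p under 0.05 and 0 at an unadjusted p under 0.05), where 0.809% of all probe sets were called. The median log2 difference of the 39 was -0.0054, with 18 positive values. NAD4 had the lowest value. Its WT root arrays read 14.8, 23.2 and 18.4 and its pdx1.3 root arrays 9.42, 11.7 and 11.2, a log2 difference of -0.37 (SE 0.25, limma adjusted p = 1.00), and no root array had a present call for it. NAD4 and ORF25 were the genes whose root signals did not overlap between the genotypes, 2 of 39, against 11.1% of all probe sets. For ORF25 the WT root arrays read 8.5, 9.02 and 10.2 and those of pdx1.3 read 7.47, 5.47 and 7.71 (log2 difference -0.14, SE 0.13, limma adjusted p = 1.00).

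The difference between the genotype effect in leaves and that in roots was called for 1 of the 39 genes, ORF107G, against 1.87% of all probe sets, and that gene was absent on all arrays. ORF111D had a difference of 0.87 on the log2 scale (SE 0.25, limma adjusted p = 0.119), ORF149 of 0.61 (SE 0.27, limma adjusted p = 0.347), NAD4 of 0.52 (SE 0.35, limma adjusted p = 0.602) and ORF25 of 0.44 (SE 0.18, limma adjusted p = 0.304). A leaf call without a root call is therefore not shown to be a difference between the organs for ORF111D, nor for NAD9, whose difference was 0.37 (SE 0.16, limma adjusted p = 0.334). Without pdx1.3 leaves replicate 2 the difference of ORF25 was 0.62 (limma adjusted p = 0.0384), and without both leaf arrays numbered 1 that of NAD4 was 1.06 (limma adjusted p = 0.0194).

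**Figure D4:**
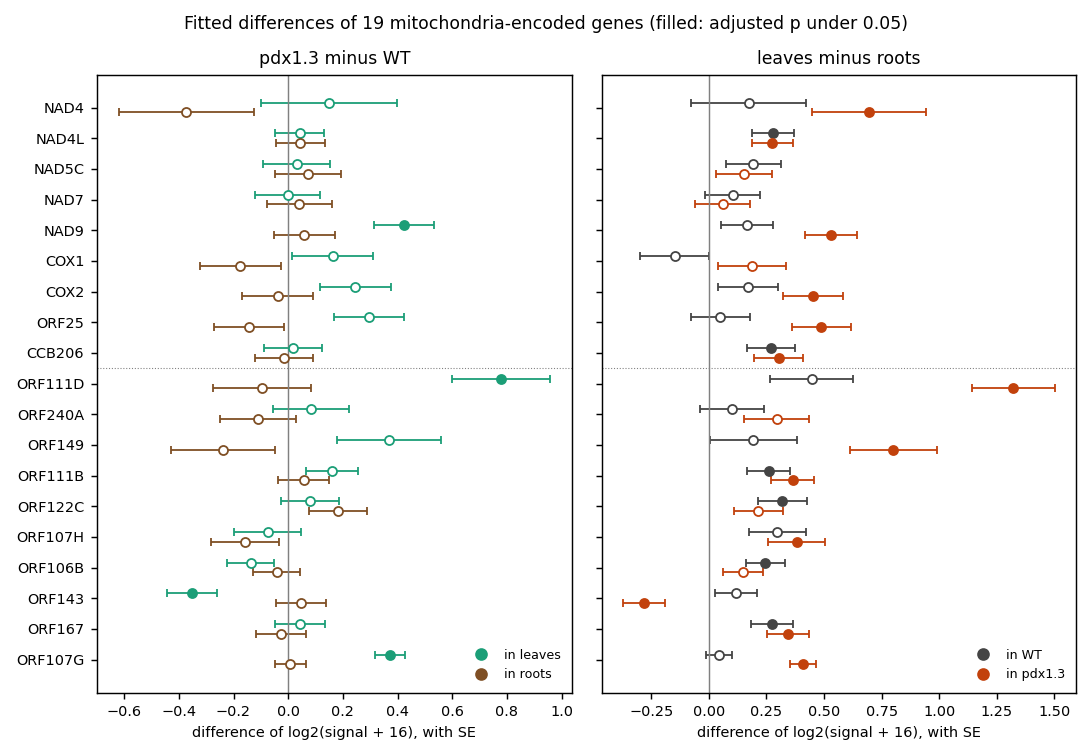
Fitted differences of log2(signal + 16) with their standard errors for 19 mitochondria-encoded genes, those of known function above the dotted line. The left panel gives pdx1.3 minus WT in leaves and roots, the right panel leaves minus roots in WT and in pdx1.3; filled points have a limma adjusted p under 0.05, and no root point in the left panel is filled.

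The comparison of leaves with roots asked how the organs differ within a genotype. In WT, 8 of the 39 genes were called, all higher in leaves, in a comparison where 52.5% of all probe sets were called. In pdx1.3, 13 were higher in leaves and 1 was lower, and 54.7% of all probe sets were called. The share of mitochondria-encoded genes called in either direction was thus below that of all probe sets in both genotypes. Most of the 39, however, were at the edge of detection. Of all 22746 probe sets, 4750 were called higher and 7203 lower in WT leaves, and 5057 and 7380 in pdx1.3 leaves. Of the 13 members present on at least 3 arrays, the same fit called 4 in WT (30.8%) and 8 in pdx1.3 (61.5%), all higher in leaves. Among the 17449 probe sets present on at least 3 arrays, the shares called in either direction were 63.7% and 66.7%. Of these probe sets, 4223 and 4573 were called higher in leaves. The median log2 difference was 0.10 in WT and 0.15 in pdx1.3, with 34 and 30 of 39 values positive, while the medians of all probe sets were -0.048 and -0.044. When each array was centred on its median, the WT median of all probe sets moved to 0.12 and that of the 39 genes to 0.27, with 20 of them called. Over the alternative fits, between 10773 and 13692 of all probe sets were called in this WT comparison, beside 11953 in the fit reported here.

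The arrays of the organs also differed in scale. In the authors' deposited table the factor that scaled an array to the common level was between 0.43 and 0.53 for the leaf arrays and between 0.27 and 0.38 for the root arrays. The median signal of the 39 genes was between 5.95 and 7.84 on the leaf arrays and between 3.7 and 5.33 on the root arrays. Of the 21 genes present on no array, 18 had a positive value in WT (leaves minus roots), as did 2600 of the 4296 probe sets of the whole array that were present nowhere. Their median log2 differences were 0.06 and 0.020. What the scaling of dim signals contributes to these organ differences was not tested.

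Among the genes with a present call in both organs of WT, CCB206 (cytochrome c maturation) had signals of 13.9, 9.94 and 12 in leaves and 5.39, 7.59 and 8.5 in roots, a log2 difference of 0.27 (SE 0.11, limma adjusted p = 0.0463). NAD4L, of complex I, was present on only 1 array of each WT organ. Its signals were 13.1, 8.1 and 9.08 in leaves and 3.87, 7.04 and 5.53 in roots, a log2 difference of 0.28 (SE 0.09, limma adjusted p = 0.0187). ORF111B, whose annotation notes also name a nuclear locus, had signals from 15.9 to 18.2 in leaves and from 9.42 to 12.9 in roots. Its log2 difference was 0.26 (SE 0.09, limma adjusted p = 0.0337). In each case the organs did not overlap, which in WT held for 15 of the 39 genes and for 59.2% of all probe sets. The remaining 5 called genes were ORF106F, which was present in both organs, and ORF106B, ORF122C, ORF167 and ORF275, which were present on no array of either organ in WT; ORF106F and ORF275 are named only because they complete the count. None of the 8 calls was kept in all 12 fits that left out 1 array. That of NAD4L fell away when the WT arrays numbered 1 were omitted singly (adjusted p = 0.0747 for leaves and 0.0818 for roots). ORF111B lost it without WT leaves replicates 2 or 3 or WT roots replicates 1 or 2 (adjusted p up to 0.129), and CCB206 without WT leaves replicates 1 or 3, WT roots replicates 1 or 2 or any pdx1.3 root array (adjusted p up to 0.159). CCB206 and ORF111B were also not called with a constant of 1 (adjusted p of 0.074 and 0.0714). With no variance trend CCB206 had an adjusted p of 0.0538 and with the replicate block 0.0615, while ORF111B had 0.0673 with only the WT arrays fitted and 0.0739 with the actin covariate. Without both leaf arrays numbered 1, neither NAD4L (adjusted p = 0.0767) nor CCB206 (adjusted p = 0.0521) was called. COX1 had the reverse sign, with signals from 22.3 to 26.8 in leaves and from 23.7 to 33.9 in roots, and was not called (log2 difference -0.15, SE 0.15, limma adjusted p = 0.431).

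In pdx1.3 the genes called higher in leaves included ORF111D, ORF149, NAD9, ORF25 and COX2. ORF111D, at 79.2 to 104 in leaves and 20.7 to 37 in roots, had a log2 difference of 1.32 (SE 0.18, limma adjusted p = 3.33e-05), beside 0.45 in WT (SE 0.18, limma adjusted p = 0.0534), a WT value that also passed in several other fits. With quantile normalization it was 0.61 (adjusted p = 0.00868) and with centred arrays 0.61 (adjusted p = 0.00606). It passed among probe sets present on at least 3 arrays (adjusted p = 0.0367), with no variance trend (adjusted p = 0.0461), and when pdx1.3 roots replicates 2 or 3 or WT roots replicate 3 were left out (adjusted p of 0.0464, 0.0426 and 0.0295). ORF149 had signals of 44.8, 27.8 and 21.7 in leaves and 5.44, 10.5 and 17.4 in roots, a log2 difference of 0.80 (SE 0.19, limma adjusted p = 0.00277). NAD9 differed by 0.53 (SE 0.11, limma adjusted p = 0.00118), ORF25 by 0.49 (SE 0.13, limma adjusted p = 0.00534) and COX2 by 0.45 (SE 0.13, limma adjusted p = 0.00957), and none of these overlapped between the organs. In pdx1.3 such a lack of overlap held for 18 of the 39 genes and for 60.5% of all probe sets. ORF111B, CCB206 and NAD4L were called here as in WT, with log2 differences of 0.36, 0.30 and 0.28. NAD4 had a log2 difference of 0.69 (SE 0.25, limma adjusted p = 0.0307). NAD4 and NAD4L were present on no pdx1.3 root array, so their root signals, with means of 10.8 ± 1.22 (SD, n = 3) and 6.14 ± 1.22 (SD, n = 3), are treated as within background. Of the genes of known function, 6 of 9 (66.7%) were called higher in leaves in pdx1.3 and 2 of 9 (22.2%) in WT. Of all 22746 probe sets, 5057 were called higher in leaves in pdx1.3 and 4750 in WT. Of the 17449 present on at least 3 arrays, 4573 and 4223 were called higher. Calls in either direction made up 54.7% and 52.5% of all probe sets, and 66.7% and 63.7% of those present on at least 3 arrays. The interaction test above is the test of the difference between genotypes for these 9 genes, and it called none of them.

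Among the 14 called genes of pdx1.3, 5 were present on no array of either organ in that genotype (ORF107G, ORF107H, ORF131, ORF143 and ORF167). With each array left out in turn, ORF111D, NAD9, ORF25, COX2, ORF149, ORF111B, ORF107G, ORF131 and ORF167 kept their calls 12 times out of 12. CCB206, NAD4, NAD4L, ORF107H and ORF143 did not. NAD4 lost its call without any pdx1.3 root array and without pdx1.3 leaves replicates 2 or 3 (adjusted p from 0.0578 to 0.128), and CCB206 without pdx1.3 leaves replicate 1 (adjusted p = 0.11), pdx1.3 roots replicate 1 (adjusted p = 0.0553) or pdx1.3 roots replicate 3 (adjusted p = 0.0826). For NAD4L this held on omitting pdx1.3 leaves replicate 3 or pdx1.3 roots replicate 2 (adjusted p of 0.0528 and 0.0769). ORF107H lost it without pdx1.3 leaves replicates 1 or 2 or pdx1.3 roots replicates 1 or 2 (adjusted p up to 0.0772), and ORF143 without pdx1.3 leaves replicates 1 or 3 or pdx1.3 roots replicate 3 (adjusted p up to 0.0878). NAD4 was also not called with the actin covariate (adjusted p = 0.0624), CCB206 and NAD4L with a constant of 1 (adjusted p of 0.052 and 0.0519), and ORF143 with centred arrays (adjusted p = 0.154). Without both leaf arrays numbered 1, CCB206 (adjusted p = 0.0877), ORF143 (adjusted p = 0.0625) and ORF107H (adjusted p = 0.0536) were not called.

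ORF25, NAD4L, ORF149 and ORF275 are neighbours on the reverse strand in the deposited annotation, which names no genome build: ORF25 spans positions 188084 to 188662, NAD4L 188929 to 189231, ORF149 190104 to 190553 and ORF275 191055 to 191882. In leaves minus roots of pdx1.3 the log2 differences of ORF25, NAD4L and ORF149, all called, were 0.49, 0.28 and 0.80, and that of ORF275 was 0.31 and not called (SE 0.13, limma adjusted p = 0.0599). The calls differed in WT. There ORF25 (0.05, limma adjusted p = 0.779) and ORF149 (0.19, limma adjusted p = 0.426) were not called. NAD4L (0.28, limma adjusted p = 0.0187) and ORF275 (0.35, limma adjusted p = 0.0360) were called, ORF275 with no present call in either WT organ. In pdx1.3 minus WT leaves the log2 differences of the 4 genes, in the same order, were 0.30, 0.04, 0.37 and 0.03, and none was called.

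The 64 probe sets that cannot tell a mitochondrial gene from another locus were read apart from the 39. Of the 64, 9 were present on all 12 arrays and 32 on none. In leaves 4 were called (6.25%), all higher in pdx1.3. Of all 22746 probe sets, 7.22% were called in either direction and 1070 were called higher. The probe set of ATP8, a subunit of the ATP synthase, also names AT2G07707 and had signals of 36.4, 33.8 and 29.3 in WT leaves and 66.5, 64.8 and 74 in pdx1.3 leaves. Its genotypes did not overlap in leaves, with a log2 change of 0.78 (SE 0.16, limma adjusted p = 0.0106), and its signals in roots were between 5.76 and 16.9. The probe set that names ATP9, the ring subunit of the ATP synthase, together with ORF315 and AT2G07671 had signals of 89, 64.3 and 75.7 in WT leaves and 118, 140 and 149 in pdx1.3 leaves, a log2 change of 0.72 (SE 0.17, limma adjusted p = 0.0217). The call of ATP8 was kept in all 12 fits without 1 array, and that of ATP9 was lost without replicates 2 or 3 of either leaf group (adjusted p up to 0.0799). With a constant of 1 the ATP8 probe set was not called (adjusted p = 0.083), nor was that of ATP9 with only the leaf arrays fitted (adjusted p = 0.0647). The other called probe sets named ATMG01090 with AT2G07777 (log2 change 0.74, SE 0.17, limma adjusted p = 0.0188) and ATMG01010 with AT2G07674 (0.41, SE 0.10, limma adjusted p = 0.0294). Each was present on 2 pdx1.3 leaf arrays only, and their calls were lost in 3 and 4 of the 12 fits without 1 array. The other probe sets of ATP synthase genes among the 64 were not called in leaves. That of ATP1, which encodes the alpha subunit, had a log2 difference of 0.14 (SE 0.16, limma adjusted p = 0.71), and that of ATP6, which encodes a subunit of the membrane part, one of -0.10 (SE 0.16, limma adjusted p = 0.803). In these probe sets a transcript of the nuclear copy and one of the mitochondrial gene cannot be told apart. No shared probe set was called between the genotypes in roots. In WT leaves minus WT roots 11 (17.2%) were called and in pdx1.3 leaves minus pdx1.3 roots 14 (21.9%), all higher in leaves. Of all 22746 probe sets, 4750 and 5057 were called higher in these comparisons, and 52.5% and 54.7% in either direction. The annotation notes of 12 of the 39 genes also name a nuclear locus. Among these genes are ORF111B (AT2G07667), ORF106B (AT2G18323), ORF275 (AT2G07811) and ORF107G (AT2G07743). Among the 27 without such a note, 3 (11.1%) were called between the genotypes in leaves, 5 (18.5%) between the organs in WT and 12 (44.4%) in pdx1.3, beside 7.22%, 52.5% and 54.7% of all probe sets.

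Nuclear genes for mitochondrial proteins, taken from lists of 112 genes of which 91 were measured, were set beside them. Of the 91, 3 (3.30%, against 7.22% of all probe sets) were called in pdx1.3 minus WT leaves, all lower: CYTC-1, a cytochrome c, PUMP1, a mitochondrial carrier of the uncoupling protein family, and AT2G41730, a gene of the list for mitochondrial stress. CYTC-1 had a mean signal of 1419 ± 179 (SD, n = 3) in WT leaves and 886 ± 157 (SD, n = 3) in pdx1.3 leaves (log2 change -0.68, SE 0.19, limma adjusted p = 0.0474), and PUMP1 had 322 ± 5.34 (SD, n = 3) and 210 ± 35.1 (SD, n = 3) (log2 change -0.59, SE 0.15, limma adjusted p = 0.0331). The call of CYTC-1 was lost in 9 of the 12 fits that left out 1 array (adjusted p up to 0.149), all but those without pdx1.3 roots replicate 3, WT leaves replicate 1 or WT roots replicate 1. The call of PUMP1 was lost in 6 (adjusted p up to 0.129), those without pdx1.3 leaves replicates 2 or 3, pdx1.3 roots replicate 1 or any WT leaf array. That of AT2G41730 was kept in all 12. With only the leaf arrays fitted none of the 3 was called (adjusted p of 0.109 for CYTC-1, 0.0896 for PUMP1 and 0.075 for AT2G41730). CYTC-1 also had an adjusted p of 0.0547 with a constant of 1, 0.071 with quantile normalization, 0.0592 with the replicate block, 0.0616 with the actin covariate and 0.0741 without both leaf arrays numbered 1. The median log2 differences in leaves were -0.17 for the 11 measured nuclear subunits of complex I, -0.39 for the 10 of complex IV and -0.32 for the 7 of the ATP synthase, with 1, 2 and 0 positive values and no call. It was -0.22 for the 10 of complex III and cytochrome c, with 0 positive values and 1 call. The other lists had positive medians: 0.11 for the RNA and DNA machinery (19 of 24 values positive, no call), 0.055 for the stress response (9 of 14, 1 call), 0.018 for alternative respiration (7 of 13, 1 call) and 0.0054 for complex II (2 of 4, no call). The median of the 9 mitochondria-encoded genes of known function was 0.15, with 8 positive values and 1 call. Its size is not directly comparable with those of the lists, since adding 16 before log2 shrinks differences of dim genes more. None of the 91 was called between the genotypes in roots.

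Between the organs of WT, 52 of the 91 nuclear genes were lower and 5 higher in leaves, and their median log2 difference was -0.47. These 57 calls are 62.6% of the 91, against 52.5% of all probe sets and 63.7% of those present on at least 3 arrays, in either direction. By direction, 7203 of all 22746 probe sets were called lower in leaves and 4750 higher. Of the 17449 present on at least 3 arrays, 6886 were called lower and 4223 higher. All 7 measured nuclear ATP synthase subunits were lower in leaves (median -0.72), as were 8 of 11 of complex I (median -0.65), 8 of 10 of complex IV (median -1.03), 8 of 10 of complex III and cytochrome c (median -0.76) and all 4 of complex II (median -1.34). The stress response list had 6 lower and 1 higher of 14 (median -0.26). Alternative respiration had 4 higher and 3 lower of 13 (median 0.021). ATPQ, a subunit of the ATP synthase, had 855 ± 62.2 (SD, n = 3) in leaves and 1428 ± 261 (SD, n = 3) in roots. GAMMA CAL2, a carbonic anhydrase-like subunit of complex I, had 234 ± 10.9 (SD, n = 3) and 470 ± 40.1 (SD, n = 3). NDA1, an internal alternative NADH dehydrogenase, had the largest difference of these lists in the other direction, with 772 ± 158 (SD, n = 3) in leaves and 7.99 ± 2.96 (SD, n = 3) in roots, where it was present on no WT array. Of the 24 measured genes for mitochondrial RNA and DNA machinery, 9 were lower and 1 higher in leaves. The higher one, POLGAMMA2, a DNA polymerase of the organelles, differed by 1.67 on the log2 scale (SE 0.19, limma adjusted p = 5.8e-06), and MORF1, an RNA editing factor, by -1.37 (SE 0.16, limma adjusted p = 1.04e-05). The 71 chloroplast-encoded genes, selected from the table by the same rule, differed far more between the organs, with 68 called higher in WT leaves and a median log2 difference of 2.19.

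**Figure D5:**
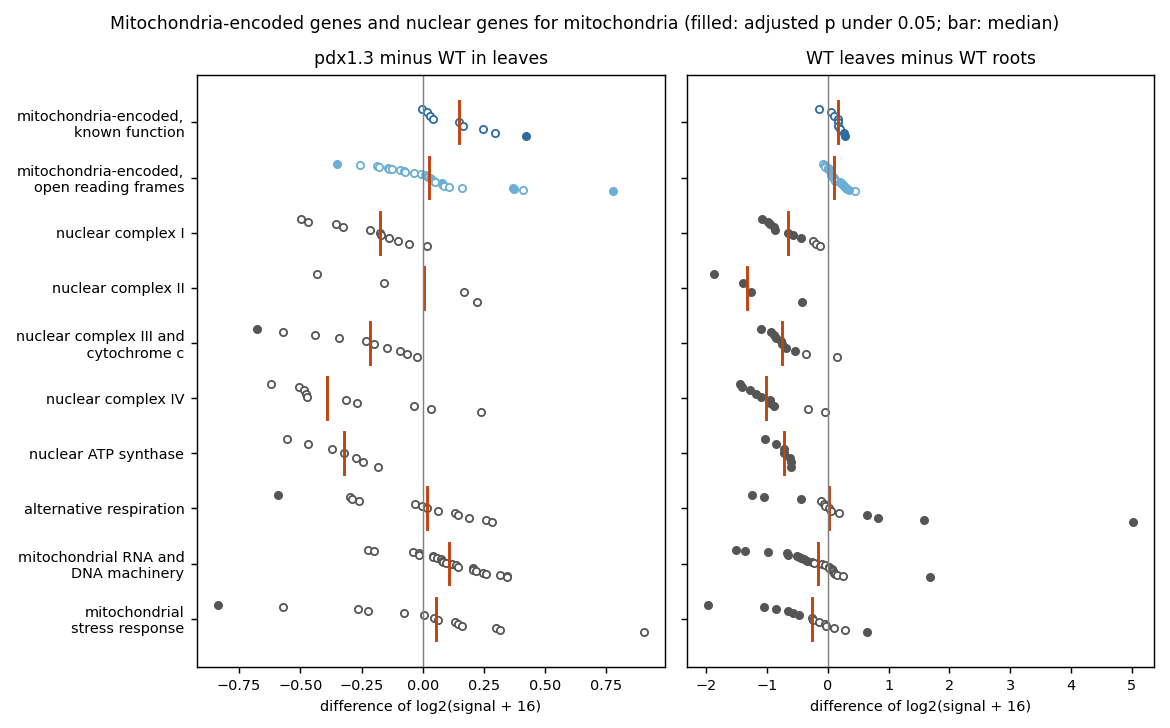
Differences of log2(signal + 16) for the mitochondria-encoded genes (blue) and for nuclear genes of mitochondrial complexes and functions (grey), 1 point for each measured gene, in pdx1.3 minus WT leaves (left) and in WT leaves minus WT roots (right, with a wider scale). Filled points have a limma adjusted p under 0.05 and bars mark medians. In the right panel the median of the known mitochondria-encoded genes is 0.17 and that of nuclear complex II is -1.34. The 16 added before log2 shrinks differences of dim genes more, so sizes are not directly comparable between sets of unlike signal.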

How the data were processed

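RNA of 12 samples was hybridised to Affymetrix ATH1 arrays after labelling from 500 ng of total RNA, per the labels' protocols. The authors made 1 signal intensity per probe set and a present, marginal or absent call with MAS5 and GCOS, per the submitters' processing notes and the file headers, with no versions given there. The authors also deposited signed fold changes (scores, as they are negative for a fall), unadjusted p-values and scores that number the array pairs with a change call, per the file headers, as well as per-array scaling factors (ratio), background signal and the percent of probe sets present. A second deposited table of signal intensities differed by at most 0.056 over the 39 genes.

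The intensities were used without further normalization. Of 22810 probe sets, 64 controls were left out. Limma 3.58.1 in R 4.3.3 fitted 4 group means to log2(signal + 16) over all 12 arrays, with a variance trend and Benjamini-Hochberg adjustment over 22746 probe sets, and was tested on simulated data. The constant 16 makes differences of dim genes small, so log2 values understate them. Gene names come from the deposited annotation. The number of arrays limits the precision.

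Named genes were those of known function, the 4 other genes with the highest mean signal, per comparison the 3 with the smallest p, and up to 3 called members of each nuclear list. ATP1, ATP6, ATP8, ATP9 and genes named to complete a count were chosen after their values were seen. The members and lists were chosen with earlier results of these data known. Alternatives were other constants (1 and 64), quantile normalization, centring, a filter on present calls, other fits, a replicate block, the actin ratio as covariate, other thresholds and member rules, and each array left out.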

Additional observations from a re-analysis of the deposited data

Results flagged for a closer look

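ORF107G had a genotype effect that differed between leaves and roots by 0.36 on the log2 scale (limma adjusted p = 0.0368), with signals of 4.4 to 7.85 in pdx1.3 leaves and below 1 on the 9 other arrays. It was called absent on all 12 arrays, and its annotation notes name the nuclear locus AT2G07743 as well. The call was kept in 2 of the 12 fits that left out 1 array (adjusted p up to 0.101), and the log2 difference stayed between 0.30 and 0.41 in these fits. It was also lost with a constant of 1 (adjusted p = 0.0501), quantile normalization (adjusted p = 0.0568), centred arrays (adjusted p = 0.139), no variance trend (adjusted p = 0.118) and the replicate block (adjusted p = 0.0553).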

How the results depend on the processing

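Every alternative kept 0 calls between the genotypes in roots, and no called gene changed sign. Of 2216 values recomputed for named genes, 114 lost a call and 29 gained one. With a constant of 1 before log2, the median log2 difference of the 39 genes was 0.11 for pdx1.3 minus WT leaves, 0.15 for the difference of the genotype effects, 0.40 for WT leaves minus roots (4 calls) and 0.53 for pdx1.3 leaves minus roots; with 64 it was 0.035 and 0.047 for the organs, as larger constants shrink dim differences by construction. Quantile normalization gave a WT organ median of 0.15. With arrays centred on their median, the medians were -0.033 in leaves, -0.019 for the difference of the effects, 0.27 for WT organs (20 calls) and 0.27 for pdx1.3 organs. Among genes present on at least 3 arrays, which are fewer genes, the leaf comparison had 2 calls and a median of 0.16, roots a median of -0.074, the difference of the effects a median of 0.19, WT organs 5 calls and 0.17, and pdx1.3 organs 8 calls and 0.30. The leaf comparison also had 2 calls when only its 6 arrays were fitted. The difference of the effects had 0 calls with a constant of 1, quantile normalization, centring, the filter, no variance trend and the replicate block, and 2 without both leaf arrays numbered 1, where WT organs had 5. At an adjusted p under 0.01, counts were 1 in leaves, 0 for the difference, 0 for WT organs and 9 for pdx1.3 organs. Over all 103 probe sets naming a mitochondrial locus, 8, 19 and 28 were called in leaves, WT organs and pdx1.3 organs. Taking the lowest signal per locus changed nothing, since each locus has 1 probe set. Leaving out 1 array gave 2 to 4 calls in leaves, 0 to 2 for the difference, 1 to 9 for WT organs (1 without WT leaves replicate 3 or WT roots replicate 1, and 2 without WT roots replicate 2), with a WT organ median from 0.083 to 0.19, and 12 to 15 for pdx1.3 organs. The cause of the other changes was not tested. Over all probe sets, the calls ran from 516 to 1756 in leaves (1642 as reported), from 61 to 384 in roots (184) and from 137 to 574 for the difference (425) over these fits. For the organs they ran from 10773 to 13692 in WT (11953) and from 11402 to 13111 in pdx1.3 (12437).

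With the replicate block, 2 of the 39 genes were called in leaves (ORF111D and ORF107G), 0 in roots, 6 in WT organs and 15 in pdx1.3 organs. The replicate numbers were not treated as pairs. To look for pairing, deviations from the group means were correlated between arrays over the 17449 probe sets present on at least 3 arrays. For same-numbered arrays these correlations lay between -0.092 and -0.0063 in the leaf groups, between -0.23 and -0.058 in the root groups and between -0.10 and -0.073 across the WT organs. Across the pdx1.3 organs the correlations were 0.192 for number 1, -0.185 for number 2 and 0.376 for number 3, while arrays of unlike number ran from -0.392 to 0.326. These values do not settle whether the numbers pair the pdx1.3 organs.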
